A study of Rattus norvegicus with 4 samples.

Results

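The 10 genes described here encode enzymes that make or break down prostaglandins and receptors that sense them: Ptgs1, Ptgs2, Ptges, Ptgds, Ptgis, Ptger2, Ptger4, Ptgfr, Hpgd and Ptgr1. They were chosen by name as a family, with earlier results of these data known, though no criterion on their values was set. Every probe set whose single platform gene symbol is one of them was taken. This gave 14 probe sets for the 10 genes, out of 31042 probe sets and 14217 named genes on the array. The cells were Sertoli cells, the somatic cells that support germ cells in the seminiferous tubule, taken from male Sprague-Dawley rats aged 20 days. All cells were kept for 72 h in serum-free medium, either untreated (control, 2 arrays) or with cAMP (2 arrays). Neither the form of cAMP nor its dose is stated in the sources used. The labels call the arrays of a group biological replicates without naming separate cell preparations, so the p-values reflect only how far these samples spread, and part of that spread may be technical. No transgene, sorting or pooling is named in the labels, and the cultures are primary isolates that can carry other testis cells.

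Prostaglandins are lipid signals made from arachidonic acid, which phospholipases release from membranes. The cyclooxygenases encoded by Ptgs1 and Ptgs2 turn it into prostaglandin H2, and terminal synthases then make the E, D, F and I prostaglandins and thromboxane. The products act on receptors coupled to G proteins, and of the receptors studied here those of Ptger2 and Ptger4 raise cAMP inside the cell, while that of Ptgfr raises calcium. Hpgd and Ptgr1 encode successive steps of inactivation. In ovarian granulosa cells, the female counterparts of Sertoli cells, Ptgs2 is known as a gene induced through the cAMP pathway.

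RefSeq promoter sequence of assembly GRCr8 was matched by symbol for 8 of the 10 genes. The 250 bases before the annotated start are shown for the genes in which the searched motifs or the measured difference call for it: Ptgs2, because it alone among the 8 held the palindromic E-box, Hpgd, because it alone held the half-site of the cAMP response element, and Ptgds, because it had the lowest p among the tested probe sets. Capitals mark E-box cores, CANNTG, the binding sequence of basic helix-loop-helix factors, and the half-site TGACG. All motifs were searched on both strands.
Ptgs2, chr13:64713813-64714062, plus strand: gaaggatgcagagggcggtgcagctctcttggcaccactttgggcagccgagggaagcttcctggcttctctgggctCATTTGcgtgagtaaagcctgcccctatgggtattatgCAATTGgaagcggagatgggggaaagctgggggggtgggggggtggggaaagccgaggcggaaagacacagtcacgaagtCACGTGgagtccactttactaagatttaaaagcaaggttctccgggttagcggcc
Ptgds, chr3:28682979-28683228, minus strand: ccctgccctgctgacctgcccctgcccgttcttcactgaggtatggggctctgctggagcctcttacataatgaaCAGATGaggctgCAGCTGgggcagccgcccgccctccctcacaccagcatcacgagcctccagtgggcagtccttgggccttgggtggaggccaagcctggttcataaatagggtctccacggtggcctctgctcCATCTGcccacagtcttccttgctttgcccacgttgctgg
Hpgd, chr16:39034832-39035081, minus strand: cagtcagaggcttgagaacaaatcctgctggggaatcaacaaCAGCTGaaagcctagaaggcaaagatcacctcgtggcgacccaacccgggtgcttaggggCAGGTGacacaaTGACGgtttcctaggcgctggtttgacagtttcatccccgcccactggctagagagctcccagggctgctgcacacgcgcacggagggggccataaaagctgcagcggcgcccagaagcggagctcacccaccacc

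The palindromic E-box CACGTG, which is one form of CANNTG, began 55 bases before the Ptgs2 start. It was present in 1 of the 8 member windows, and in 5.79% of 27457 RefSeq windows of the same length. CANNTG itself was present in 5 of the 8 windows, against 65.2% of all windows, with 3 matches each in Ptgs2 and Ptgds. The half-site TGACG, which is contained in the full element, began 136 bases before the Hpgd start and occurred in 19.0% of all windows. The full cAMP response element TGACGTCA was in none of the 8 windows and in 1.70% of all windows. These matches describe the letters in these windows only. Ptgs1, Ptges and Ptgds lay on the same chromosome, chromosome 3.

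The values are probe set signals on a linear scale, in arbitrary units set by the authors' scaling. The median signal lay between 31.3 and 33.7 on the 4 arrays. Background was set at 14.2, the maximum over the 27 probe sets for Bacillus control transcripts, and 64.3% to 66.4% of the probe sets exceeded it on each array. The actin probe sets, whose 3' to 5' ratio reports on RNA integrity, gave ratios from 1.65 (cAMP replicate 2) to 2.25 (control replicate 2). As a check that the cells responded, the cholesterol transport gene Star went from signals of 81.0 and 48.9 on the control arrays to 3369 and 2853 with cAMP. Of 12 measured Sertoli cell markers, 11 were above background on every array, with a summed signal of 25051 to 26490 in controls and 26838 to 27343 with cAMP. Such a sum follows its brightest probe sets. Clu weighed most in it on every array, with 6858 and 7278 in controls and 6072 and 6410 with cAMP. Of the 11 tested, 3 (Inha, Dhh and Shbg) were higher and 2 (Gata4 and Aard) lower; Inha gave 951.6 and 1243 in controls and 4345 and 4733 with cAMP, and Gata4 gave 1290 and 1233 in controls and 647.6 and 649.0 with cAMP.

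Most of the 10 genes gave little or no signal in these cells. For 5 of them (Ptgs1, Ptgs2, Ptgis, Ptger4 and Hpgd) every probe set lay at or below background on all 4 arrays, against 17.1% of the 14217 named genes. Ptger2 and Ptgfr exceeded background on control replicate 1 only. Ptges, Ptgds and Ptgr1 were above it on all 4 arrays. Only these 3 genes, with 4 probe sets, passed the filter on dim probe sets and were tested. In limma's test 0 of the 4 probe sets was called higher or lower with cAMP (Benjamini-Hochberg adjusted p under 0.05), against 13.7% of the 18625 probe sets tested (7.29% higher and 6.39% lower), and 0 of the 4 had an unadjusted p under 0.05. That background was 25.7% without control replicate 1, 3.83% without cAMP replicate 1 and 4.15% without cAMP replicate 2, and the count of members stayed at 0 in each case. The median log2 difference was -0.019 over the 4 member probe sets and -0.037 over all tested ones. In 5 of the 14 probe sets the 2 groups did not overlap, 4 of these at background throughout. The groups did not overlap in 49.3% of all probe sets and in 32.8% of those at background on all 4 arrays.

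**Figure D1:**
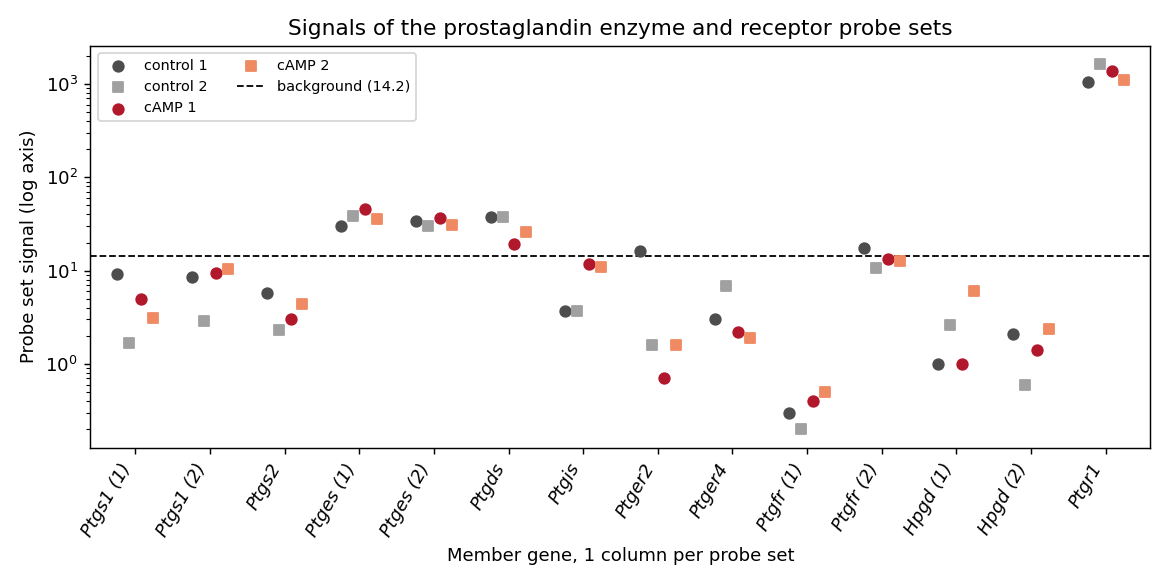
Signal of each of the 14 member probe sets on the 4 arrays (log axis); grey points are control arrays, red and orange points cAMP arrays, and the dashed line is the background of 14.2. Ptges, Ptgds and Ptgr1 stay above the line on all 4 arrays, and of the other genes only Ptger2 and Ptgfr cross it, on control replicate 1. Signals of different probe sets are not comparable with each other.

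The cyclooxygenases were not detectable in either group. Ptgs2, the inducible cyclooxygenase (1368527_at), had signals of 5.8 and 2.3 on the control arrays and 3.0 and 4.4 with cAMP. The groups overlapped, and no array came near the background of 14.2. All 4 arrays sample cells kept for 72 h, so earlier times were not measured. Ptgs1, the cyclooxygenase of resting cells, had 2 probe sets. The first (1368259_at) gave 9.1 and 1.7 in controls and 5.0 and 3.1 with cAMP. The second (1381806_at) gave 8.5 and 2.9 in controls and 9.5 and 10.4 with cAMP, so that its groups did not overlap although all 4 values were at background. No fold change is given for either gene, because both groups were at background, and a signal at background does not show that a transcript is absent.

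Among the terminal synthases, Ptges and Ptgds were dim but above background on every array. Ptges encodes the microsomal prostaglandin E synthase, the inducible enzyme that makes prostaglandin E2. Its first probe set (1368014_at) gave 30.1 and 38.2 in controls and 45.8 and 36.0 with cAMP, and the second (1368015_at) gave 33.8 and 30.4 in controls and 36.9 and 30.7 with cAMP. The groups overlapped in both. On the log2(signal + 16) scale, which understates the change of dim genes, the differences, cAMP minus control, were 0.18 ± 0.21 (SE, limma adjusted p = 0.633) and 0.048 ± 0.20 (adjusted p = 0.906). Their 95% intervals ran from -0.32 to 0.68 and from -0.43 to 0.53. The sign of the second probe set's difference depended on the arrays used: it was -0.0028 without control replicate 2 and -0.042 without cAMP replicate 1.

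Ptgds encodes the lipocalin-type prostaglandin D synthase, which also carries small lipophilic molecules. Its signals (1367851_at) were 38.0 and 37.2 on the control arrays and 19.3 and 25.8 with cAMP. Both cAMP arrays lay below both controls, the one tested member probe set whose groups did not overlap; the groups did not overlap in 58.2% of all tested probe sets. The mean went from 37.6 ± 0.566 to 22.6 ± 4.60 (SD over the 2 arrays of each group), which is -0.48 ± 0.21 on the log2(signal + 16) scale. This did not pass the threshold (limma adjusted p = 0.184, unadjusted p = 0.0537 from the same fit), and the 95% interval ran from -0.97 to 0.0099. The difference stayed negative, between -0.60 and -0.36, when any 1 array was left out, with limma's adjusted p between 0.222 and 0.633.

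Ptgis encodes prostacyclin synthase, known mainly from blood vessels. Its probe set (1370012_at) read 3.7 on both control arrays and 11.9 and 11.0 with cAMP. The cAMP arrays were higher than the controls, yet all 4 signals were below background, so no fold change is given. When all probe sets were tested without the filter, the difference of 0.48 on the log2(signal + 16) scale had a limma adjusted p of 0.164 (unadjusted p = 0.0223), the only 1 of the 14 member probe sets with an unadjusted p under 0.05. In that fit 0 of the 14 was called, against 5.15% of all probe sets.

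The prostaglandin receptors were at or near background in both groups. Ptger2, which encodes the EP2 receptor for prostaglandin E2 (1369766_at), gave 16.1 and 1.6 in controls and 0.7 and 1.6 with cAMP. The higher control mean rests on control replicate 1 alone. Ptger4, which encodes the EP4 receptor (1368941_at), gave 3.0 and 6.8 in controls and 2.2 and 1.9 with cAMP, without overlap but wholly at background. Ptgfr, the receptor gene for prostaglandin F2alpha, had 2 probe sets. The first (1369126_at) stayed between 0.2 and 0.5 on all 4 arrays. The second (1369127_a_at) gave 17.6 and 10.8 in controls and 13.2 and 12.6 with cAMP, the cAMP arrays lying between the controls. Without the filter, limma's adjusted p was 0.447 for Ptger2, 0.524 for Ptger4 and 0.956 and 0.930 for the Ptgfr probe sets.

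The pair of inactivating enzymes differed in detection. Hpgd encodes 15-hydroxyprostaglandin dehydrogenase, which takes the first step in inactivating prostaglandins. Its probe sets gave 1.0 and 2.6 in controls and 1.0 and 6.1 with cAMP (1376191_at), and 2.1 and 0.6 in controls and 1.4 and 2.4 with cAMP (1387631_at). All of these were at background and the groups overlapped. Ptgr1 encodes prostaglandin reductase 1, which reduces the keto products of that step and also inactivates leukotriene B4. Its signals (1388102_at) were far above background on every array: 1041 and 1627 in control replicates 1 and 2, and 1361 and 1104 in the cAMP replicates. The controls enclosed both cAMP arrays. The mean was 1334 ± 414 in controls and 1232 ± 182 with cAMP (SD over the 2 arrays of each group), and the log2 difference was -0.086 ± 0.22 (limma adjusted p = 0.837, 95% interval -0.60 to 0.42). The sign followed the arrays used: it was 0.23 without control replicate 2 and 0.063 without cAMP replicate 2, and -0.40 was the lowest value with 1 array left out.

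For all 4 tested member probe sets the 95% interval thus lay within a 2-fold change of signal + 16 in either direction. For the dim genes Ptges and Ptgds this sets no 2-fold limit on the signal itself. The Ptgds difference was -0.73 with a pseudocount of 1, against -0.48 as reported. In such cultures fewer cells of a type and less RNA per cell cannot be told apart. Markers of cell types known to express cyclooxygenases or prostaglandin synthases were in part at background. Of 12 macrophage markers 5 were above background on every array, but Ptprc, Adgre1, Itgam, Cd163 and Tyrobp were at background on all 4; the list's summed signal was 281 to 418 in controls and 272 to 299 with cAMP. Within that list Cd68, below the filter, gave 4.1 and 6.2 in controls and 28.1 and 45.2 with cAMP (at least 2.51-fold higher, not tested), while Lyz2 gave 47.3 and 108.6 in controls and 26.4 and 27.6 with cAMP and did not pass (limma adjusted p = 0.0751). Of 8 endothelial markers 6, Pecam1 and Vwf among them, were at background on all arrays, and the sum was 171 to 257 in controls and 114 to 124 with cAMP, with Kdr the one called, lower. Of 7 mast cell markers 0 were above background on every array, with Cpa3, Hdc, Ms4a2 and Tpsab1 at background on all 4 and a sum of 43.9 to 79.8 in controls and 67.2 to 72.6 with cAMP.

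Some of the genes that release arachidonic acid or return it to lipids changed with cAMP. Of 21 tested genes of arachidonic acid release and remodelling 3 were higher, 1 lower and 17 did not pass, 19.0% called against 15.4% of the 10035 named genes tested; the list's median log2 difference was 0.035. Acsl4, which couples arachidonic acid to coenzyme A for storage in lipids, rose from 127.3 and 118.9 in controls to 627.0 and 448.7 with cAMP, a log2 difference of 1.98 ± 0.19 (limma adjusted p = 0.000863). Lpcat3, which returns arachidonic acid to phospholipids, rose by 0.95 ± 0.16, and Anxa2, whose annexin binds membranes, by 1.10 ± 0.14. The second Lpcat3 probe set rose too (0.85 ± 0.17), while a second, dimmer Anxa2 probe set did not pass (0.32 ± 0.22). Pla2g5, a secreted phospholipase A2 that releases fatty acids from phospholipids, fell from 751.3 and 699.2 to 107.1 and 150.7 (-2.37 ± 0.18, limma adjusted p = 0.000363). The cytosolic phospholipase gene Pla2g4a, known as the main supplier of arachidonic acid to the cyclooxygenases, gave 31.0 and 24.0 in controls and 35.7 and 42.5 with cAMP and did not pass (0.34 ± 0.21). Among the brightest of the others, S100a10 (-0.42 ± 0.13), Anxa1 (-0.58 ± 0.24), Plaat3 (-0.36 ± 0.16), Abhd6 (0.29 ± 0.14) and Plaa (0.22 ± 0.15) did not pass. Second probe sets of Abhd6 (-0.41 ± 0.29) and Plaa (-0.0052 ± 0.23) had the opposite sign and did not pass either. Lpcat3 missed the threshold without cAMP replicate 1 and without cAMP replicate 2, with differences of 0.98 and 0.93. In both fits fewer of all tested probe sets passed too. Acsl4, Anxa2 and Pla2g5 passed with any 1 array left out. More genes of the list were lower without control replicate 1, as were more of all tested probe sets. The list also had more lower genes without control replicate 2, where the count over all tested probe sets hardly changed.

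**Figure D2:**
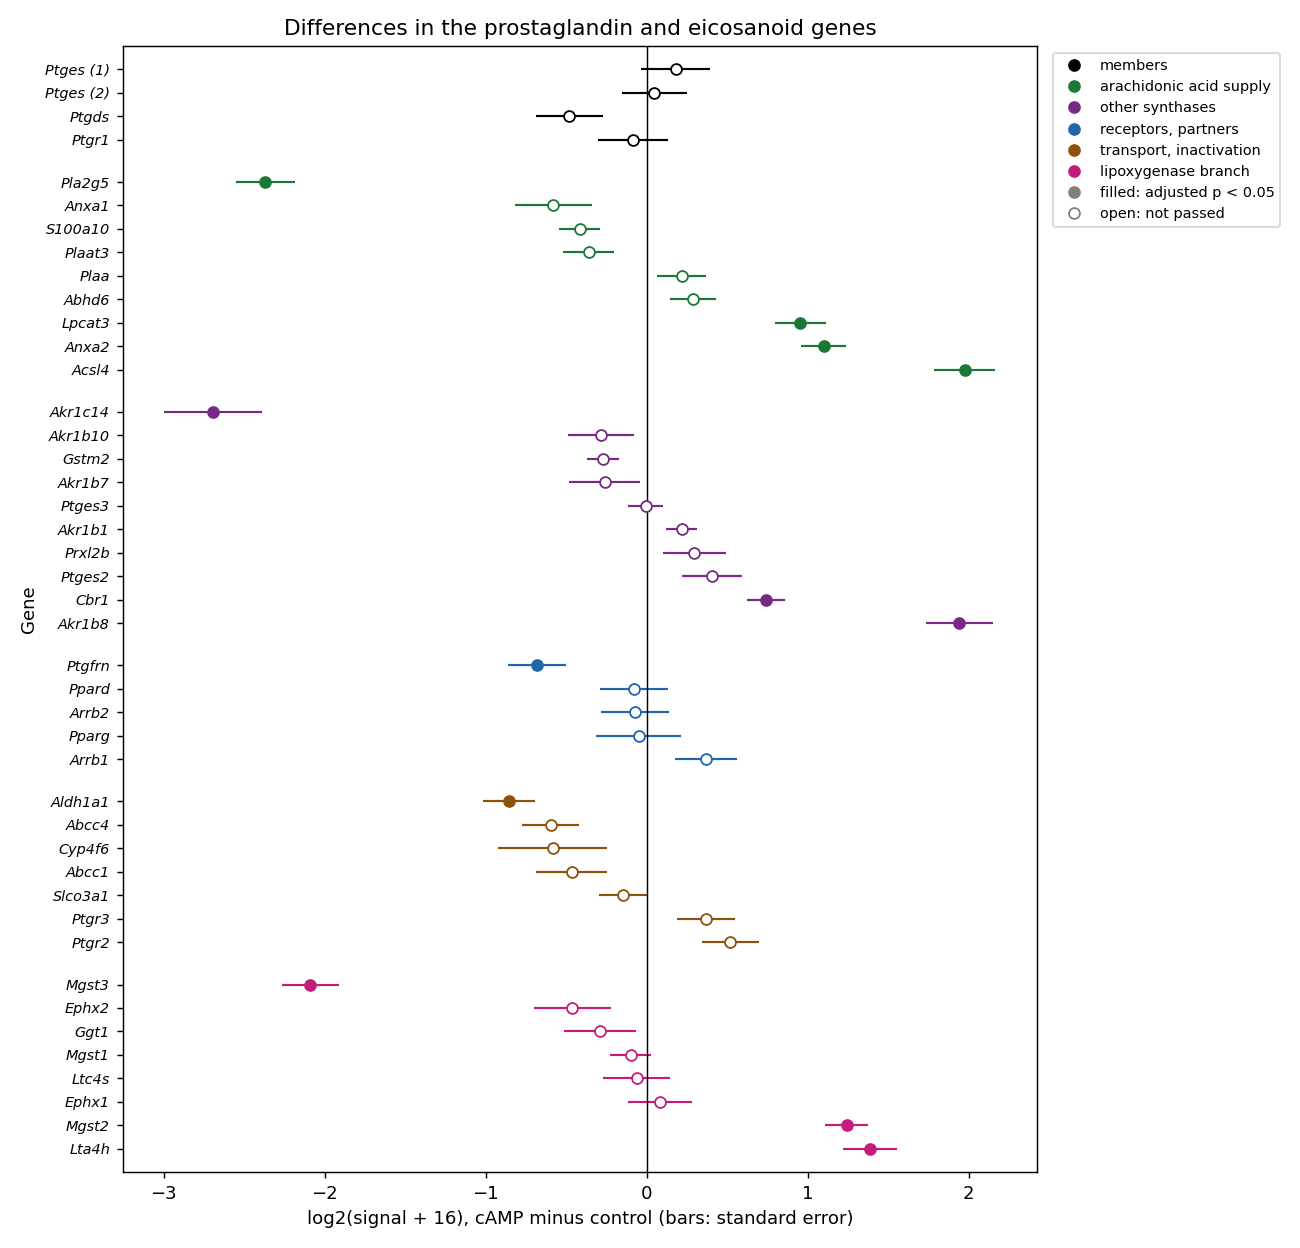
Log2(signal + 16) difference, cAMP minus control, with its standard error, for the 4 tested member probe sets (black) and the named genes of the 5 wider lists (colours); filled points passed limma's adjusted p of 0.05. All 4 member points are open, while 12 genes of the wider lists are filled, from -2.69 for Akr1c14 to 1.98 for Acsl4.

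Some genes listed here as further prostaglandin synthases changed too. Of 10 tested further synthases 2 were higher, 1 lower and 7 did not pass (30.0% called, against 15.4% of all named genes tested; median log2 difference 0.11). Akr1b8, an aldo-keto reductase, rose from 915.5 and 618.2 to 3329 and 2594 (1.94 ± 0.21, limma adjusted p = 0.00128). Cbr1, a carbonyl reductase that can turn prostaglandin E2 into F2alpha, rose from 2316 and 2069 to 3513 and 3831 (0.74 ± 0.12). Cbr1 missed the threshold without cAMP replicate 1 and without cAMP replicate 2, with differences of 0.80 and 0.68. Akr1c14, a reductase known chiefly for steroids, fell from 181.4 and 90.5 to background on both cAMP arrays, at least 9.02-fold lower, and both of its other probe sets fell too; such probe sets may share signal with near-identical Akr1c genes. Without control replicate 1 more synthase genes were lower, as were more of all tested probe sets. Akr1b1, an aldose reductase that can also make prostaglandin F2alpha, gave 4615 and 4717 in controls and 5347 and 5502 with cAMP and did not pass (0.22 ± 0.10), although it did after quantile normalization (0.42, limma adjusted p = 0.00856). The other prostaglandin E synthases, Ptges2 (0.41 ± 0.18) and Ptges3 (-0.0055 ± 0.11), did not pass, nor did Prxl2b (0.29 ± 0.20), Gstm2 (-0.27 ± 0.10), Akr1b7 (-0.26 ± 0.22) and Akr1b10 (-0.28 ± 0.20). The synthase genes Hpgds (7.8 to 15.4 over the 4 arrays) and Tbxas1 (12.3 to 20.1), for prostaglandin D2 and thromboxane, were below the filter.

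Outside the 10, the lists of receptor partners and of transport and inactivation each held 1 gene lower with cAMP, Ptgfrn and Aldh1a1. None of the other prostanoid receptor genes with a named probe set, Ptger1, Ptger3, Ptgdr2 and Tbxa2r, passed the filter, and the highest signal among their probe sets was 26.1, for Ptger3 on control replicate 2. Of the 5 tested partners 1 was called lower (20.0%, against 15.4% of all named genes tested called in either direction; list median -0.072): Ptgfrn, whose protein binds the prostaglandin F receptor, fell from 128.7 and 112.8 to 67.4 and 70.8 (-0.68 ± 0.18, limma adjusted p = 0.0476). This call was lost without control replicate 1, without cAMP replicate 1 and without cAMP replicate 2, with differences of -0.60, -0.65 and -0.71. Arrb1 (0.37 ± 0.19), Arrb2 (-0.072 ± 0.21), Ppard (-0.078 ± 0.21) and Pparg (-0.050 ± 0.26) did not pass. Of 7 tested genes of transport and inactivation 1 was lower (14.3%, against the same 15.4%; list median -0.47): Aldh1a1, an aldehyde dehydrogenase, fell from 4991 and 4636 to 2259 and 3116 (-0.85 ± 0.16), and was lost without cAMP replicate 1 (limma adjusted p = 0.155). Without control replicate 1 more genes of this list were lower, as were more of all tested probe sets. Abcc4, which exports prostaglandins (-0.60 ± 0.18), Abcc1 (-0.47 ± 0.22), Cyp4f6 (-0.58 ± 0.34), Slco3a1 (-0.15 ± 0.15) and the prostaglandin reductase genes Ptgr2 (0.52 ± 0.18) and Ptgr3 (0.37 ± 0.18) did not pass. A second Ptgr3 probe set had the opposite sign (-0.16 ± 0.26) and did not pass either. The uptake transporter gene Slco2a1 was below the filter, with signals of 4.1 to 20.9.

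**Figure D3:**
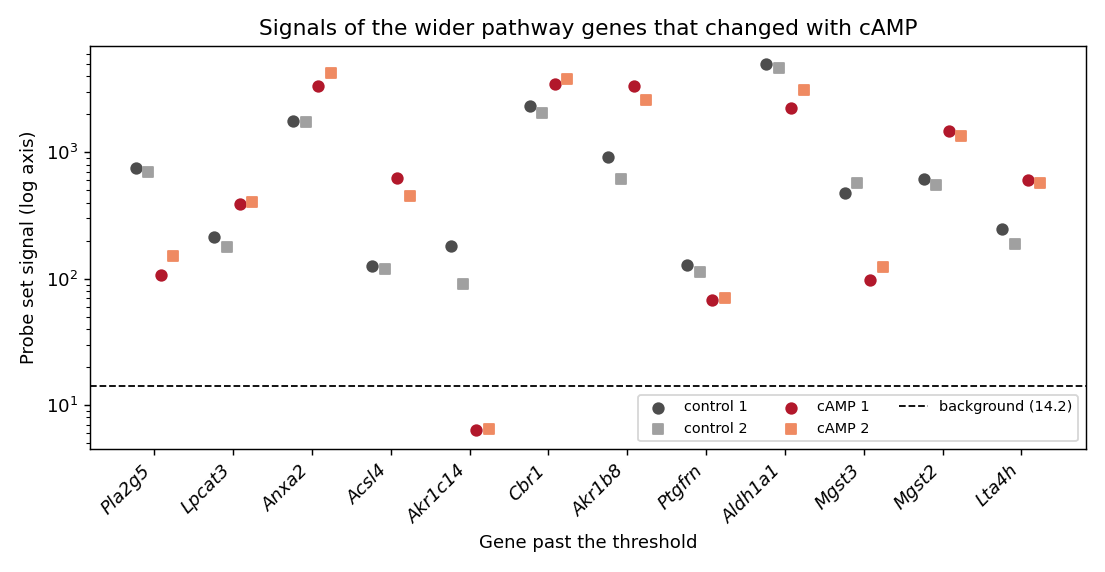
Signal on each of the 4 arrays (log axis) for the 12 genes of the wider lists that passed the threshold; grey points are control arrays, red and orange points cAMP arrays, and the dashed line is the background of 14.2. In every gene shown both cAMP arrays lie beyond both controls, and Akr1c14 alone falls to background with cAMP.

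Over the 5 wider lists 7 of 53 tested genes were higher and 5 lower with cAMP, 22.6% against 15.4% of all named genes tested, of which 8.27% were higher and 7.14% lower. The count of lower genes rose without control replicate 1 and fell without cAMP replicate 1, as did the count over all tested probe sets. Some markers of peritubular myoid and smooth muscle cells moved in the same comparison. Of 7 tested, 3 (Myl9, Synpo2 and Tagln) were lower and 1 (Des) higher. Acta2 (-0.19 ± 0.26), Myh11 (-0.35 ± 0.21) and Smtn (-0.43 ± 0.24) did not pass. The summed signal of the 10 measured went from 3551 to 3604 in controls to 1699 to 1884 with cAMP. Most of that sum was Myl9, with 2895 and 3100 in controls and 1682 and 1443 with cAMP. The part of these cells in the results above was not tested. For Leydig cells 1 of 7 markers was above background on every array, with Cyp17a1, Hsd3b1 and Lhcgr at background on all, and a sum of 92.8 to 98.5 in controls and 122.1 to 122.2 with cAMP; within it Hsd11b1, below the filter, gave 3.5 and 2.7 in controls and 32.0 and 48.7 with cAMP (at least 2.78-fold higher, not tested), and Hsd17b3 gave 23.3 and 24.3 in controls and 16.4 and 9.7 with cAMP. For germ cells 3 of 10 (Sycp1, Sycp3 and Uchl1) were above background on every array. Hspa1l, Prm1, Tnp1 and Tnp2 were at background on all. The sum was 2856 to 3364 in controls and 2383 to 3212 with cAMP. Most of it was Sycp3, with 2340 and 2298 in controls and 2258 and 1754 with cAMP.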

How the data were processed

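Total RNA was measured on one-colour Affymetrix arrays, 1 per sample. Per the submitters' processing notes, the authors used GCOS and MAS5 to make the deposited table, which holds linear intensities per probe set. The sources used name no versions, settings or genome build. Trimmed of 2% at each end, the mean was 125 on every array, so the arrays share a scale. Symbols come from the platform annotation (20832 probe sets with 1 symbol, 436 with several, 9831 with none), and 20764 were updated through the GRCr8 RefSeq gene table.

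No further normalization was applied. Probe sets other than the 57 controls were tested on log2(signal + 16) if their mean over the arrays reached the 40th percentile (log2 5.10), with limma 3.58.1 in R 4.3.3 (lmFit, eBayes with an intensity trend, two-sided, adjusted over 18625 probe sets). The probe set with the highest mean stood for a gene. Against a group wholly at background, a bound is given (at least N-fold): the ratio of geometric means, with values under 14.2 set to it. Precision is limited by having 2 arrays per group. The fit was checked on simulated data.

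Members and lists were chosen with earlier results of these data known. Named were all 10 members, every called gene of 5 wider lists, the uncalled tested genes of 3 lists and the 5 brightest of the others; Pla2g4a, the receptors below the filter, Hpgds, Tbxas1, Slco2a1, Cd68, Lyz2, Hsd11b1, Hsd17b3, Inha and Gata4 were added after their values were seen. The rule's search for genes with a profile like a called member was empty, since no member was called. Alternatives were pseudocounts of 1 and 64, no filter, quantile or median scaling, no trend, a replicate block, any probe set per gene, and each array left out.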

Additional observations from a re-analysis of the deposited data

How the results depend on the processing

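The count of members called was 0 in each direction under every alternative run, with 4 probe sets tested, or 14 without the filter. Among the wider lists Acsl4, Akr1b8, Akr1c14, Anxa2, Lta4h, Mgst2, Mgst3 and Pla2g5 passed under all 11 alternatives. Without the filter 873 probe sets were higher and 725 lower; arachidonic acid genes and further synthases then had 2 lower genes each, with Pla2g2d and Akr1c15 added, and the receptor-related and transport lists had 0 lower genes, with Ptgfrn and Aldh1a1 lost (limma adjusted p = 0.0945 and 0.0574); the cause was not tested. Quantile normalization gave 2 lower arachidonic acid genes and a difference of 0.10 for Mgst1 (-0.10 as reported); the cause was not tested. With 1 array left out, probe sets ranged from 408 to 2419 higher and from 305 to 2371 lower. Over the 5 lists together 3 to 9 genes were lower. Lower genes numbered 1 to 3 for arachidonic acid, 1 to 2 for synthases (1 to 2 higher), 0 to 1 for receptors and 0 to 3 for transport. Differences that changed sign with 1 array left out ranged from -0.042 to 0.14 for the second Ptges probe set, -0.40 to 0.23 for Ptgr1, -0.28 to 0.13 for Arrb2, -0.21 to 0.084 for Ltc4s, -0.25 to 0.054 for Mgst1, -0.25 to 0.095 for Ppard, -0.29 to 0.19 for Pparg and -0.041 to 0.030 for Ptges3; none of these passed the threshold. Same-numbered arrays deviated together only weakly (r = 0.163 across probe sets, which are not independent replicates), and with 2 pairs that share only a number the labels do not pair them; with the replicate number as a block 1540 probe sets were higher and 1495 lower, and 0 members were called. Signals at background limit what can be said of 7 of the 10 members.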

Other observations

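The lipoxygenase branch, which makes leukotrienes and related lipids from the same arachidonic acid, was split between detection and background. Of 26 genes with a probe set 10 had every probe set at background on all 4 arrays, among them Alox5, Alox5ap and Alox12, which encode a pair of lipoxygenases and the activating protein of the first. Among 10 tested genes 2 rose, 1 fell and 7 missed the threshold (30.0% called, against 15.4% of all named genes tested; list median -0.081). Lta4h, which encodes leukotriene A4 hydrolase, an enzyme that is also an aminopeptidase, rose from 245.6 and 188.7 in controls to 607.8 and 572.6 with cAMP (1.39 ± 0.17, limma adjusted p = 0.00222). The microsomal glutathione transferase genes moved apart: Mgst2, able to make leukotriene C4, rose from 620.5 and 552.3 to 1478 and 1342 (1.24 ± 0.13), while Mgst3 fell from 477.0 and 568.1 to 97.3 and 124.4 (-2.09 ± 0.18). Mgst1 (-0.10 ± 0.13), Ephx2 (-0.46 ± 0.24), Ltc4s (-0.062 ± 0.21), Ggt1 (-0.29 ± 0.23) and Ephx1 (0.082 ± 0.20) did not pass. All 3 calls passed limma's threshold with any 1 array left out.

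Some probe sets of the wider lists lay below the filter but were higher than background in controls only. Others, such as a second Ptgr2 probe set, were higher than background with cAMP only. Pla2g2d, a secreted phospholipase gene, gave 30.3 and 51.8 in controls and 7.1 and 2.9 with cAMP, at least 2.79-fold lower. Akr1c15 gave 40.1 and 24.2 in controls and 2.2 and 2.7 with cAMP, at least 2.19-fold lower. Without the filter limma's adjusted p was 0.0457 and 0.0343. Both were chosen after their values were seen. Cbr3, also above background in controls only, missed the threshold in that fit (limma adjusted p = 0.0536). Of 4 epididymal epithelium markers only Lcn2, which encodes lipocalin 2, was above background on every array. It rose from 187.9 and 63.5 in controls to 1517 and 2426 with cAMP (3.93 ± 0.42, limma adjusted p = 0.00128). Adam7 and Defb1 were at background on every array, and Cst11 exceeded it on control replicate 1 only. The list's summed signal, 72.6 to 212.9 in controls and 1536 to 2440 with cAMP, was thus mostly that of Lcn2.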
